A study of Mus musculus with 9 samples.

Results

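The genes encoded by the mitochondrial chromosome itself were examined in bulk RNA of dissected nigral tissue. They were chosen by name and place, as the genes on chromosome M whose GENCODE M21 symbol starts with mt-. The rule uses no measured value, but it was set with earlier results of these data known. It gave 37 of the 55450 genes counted, namely 13 protein-coding genes, 2 ribosomal RNA genes and 22 transfer RNA genes.

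Tissue was taken 5 weeks after Cre-dependent lentiviral vectors had been injected on both sides into the substantia nigra of male mice, and each of 3 groups has 3 libraries, lettered A to C. The CTR group is CX3CR1-CreERT2 mice given a GFP vector (destabilized GFP in the methods). The CX3 group is the same driver line, in which Cre is expressed in microglia and other cells that use the Cx3cr1 promoter, given a synuclein-expressing vector. The DAT group is DAT-Cre mice, in which Cre is driven from the dopamine transporter gene, given the synuclein vector. Mice of the CX3CR1-CreERT2 line received tamoxifen on 4 days after surgery, which DAT-Cre mice do not need. The DAT and CTR groups thus differ in driver line, tamoxifen and vector, and these cannot be told apart. All groups were transduced with a virus, and no group without a vector was analysed here. The mice were 8 weeks old at transduction according to the results section of the study, whereas its methods give 9 weeks at purchase. How many animals gave each library is not given in the sources used here, so the p-values below measure only the spread between libraries, which may be technical.

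Mitochondria keep a small circular genome in many copies per cell. It is transcribed from both strands into long precursors, which are cut at the transfer RNAs that lie between most of the other genes, so that neighbouring genes start out on one RNA and reach different levels through processing and decay. Its messenger RNAs encode core subunits of respiratory complexes I, III and IV and of the ATP synthase, while all other subunits, the mitochondrial ribosomal proteins and the enzymes that copy and read the genome are nuclear genes. In the brain, mitochondrial transcripts are abundant. In bulk tissue, fewer cells of a type and less RNA per cell cannot be told apart.

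Sequences are shown here for the places where the counting of these genes depends on the letters themselves. They are from GENCODE M21 on GRCm38, 5′ to 3′ on the strand of the gene. The genes mt-Nd5 (chrM:11742-13565, plus strand) and mt-Nd6 (chrM:13552-14070, minus strand) meet end to end and share 14 bases, in capitals below, for chrM:13506-13565 and chrM:13552-13611.
mt-Nd5: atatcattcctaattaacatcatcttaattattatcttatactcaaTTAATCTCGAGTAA
mt-Nd6: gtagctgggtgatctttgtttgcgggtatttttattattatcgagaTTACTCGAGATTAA
A read that touches 2 genes is set aside by the counting rule when strand is ignored. The genes mt-Atp8 (chrM:7766-7969) and mt-Atp6 (chrM:7927-8607) share 43 bases on the same strand, in capitals below, for chrM:7910-7969 and chrM:7927-7986.
mt-Atp8: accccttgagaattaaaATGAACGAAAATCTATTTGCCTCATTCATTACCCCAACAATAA
mt-Atp6: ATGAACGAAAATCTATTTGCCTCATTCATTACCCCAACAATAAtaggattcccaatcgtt

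Several of the genes also have a nuclear copy, and a read that matches both places equally is not counted on either. Over 678 aligned bases, mt-Atp6 and the pseudogene Gm10925 on chromosome 1 did not differ at any base, and their first 60 bases are shown for chrM:7927-7986 and chr1:24614592-24614651 (minus strand).
mt-Atp6: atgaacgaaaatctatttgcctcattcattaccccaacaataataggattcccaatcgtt
Gm10925: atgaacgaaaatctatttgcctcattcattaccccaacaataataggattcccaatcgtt
The same held for mt-Co3 and Gm28437 over 783 bases, mt-Co2 and Gm28661 over 681, and mt-Nd4 and Gm28439 over 876. The copy of mt-Nd3, Gm28438, differed at 1 of 345 bases, T3C counted from the first base of mt-Nd3, which is in capitals below for chrM:9459-9518 and chr1:24613060-24613119 (minus strand).
mt-Nd3: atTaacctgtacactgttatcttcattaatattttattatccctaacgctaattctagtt
Gm28438: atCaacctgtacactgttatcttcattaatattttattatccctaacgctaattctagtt
Of all stretches as long as a read, 76 bases, 97.8% of mt-Nd3, 98.6% of mt-Nd4l, 99.5% of mt-Co2, 99.5% of mt-Atp6 and 99.9% of mt-Co3 were found in the transcript of another gene. The share was 61.5% for mt-Nd4, 39.4% for mt-Co1, 5.61% for mt-Nd2 and 1.54% for mt-Nd5, and 0% for mt-Nd1, mt-Nd6, mt-Cytb, mt-Atp8 and both ribosomal RNAs.

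Reads counted on genes numbered 21592817 to 39475428 per library. Although the kit is described as stranded, the 2 strand-specific columns held nearly equal counts, with 49.8 to 49.9% in the second, so reads from the 2 strands cannot be told apart. Markers of other cells differed between the groups and are given as the labels name them. CPM are counts scaled to a common library size with TMM. Summed CPM of 6 B lineage markers were 1342 to 1382 in the libraries labelled CTR, 231 to 252 in those labelled CX3 and 34.0 to 44.4 in those labelled DAT. Those of 6 T cell markers were 50.6 to 52.9, 43.4 to 45.3 and 12.2 to 14.3, and those of 6 microglial markers 690.1 to 698, 458 to 463 and 451 to 463. Choroid plexus markers summed to 32.7 to 35.4 CPM in CTR, 1459 to 1569 in CX3 and 860.1 to 1030.1 in DAT. For 6 neuronal markers the sums were 3159.5 to 3173, 3564 to 3601 and 4594 to 4680.0, for 6 dopaminergic markers 414 to 417, 590.2 to 598 and 351 to 355, and for 6 astrocyte markers 5529 to 5572, 3378 to 3482 and 3754 to 3770.3. Those of 6 oligodendrocyte markers were 20179 to 20259 in CTR, 21399 to 21788.5 in CX3 and 14592.5 to 15524 in DAT. The immune, microglial and astrocyte sums were thus highest in the libraries labelled as controls. Marker RNA differed between groups also for cells that the vectors do not target. Whether this reflects cell number or RNA per cell cannot be told apart. The part of these differences in the results below was not tested. The transgenes were not measured here.

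Mitochondrially encoded genes took the smallest share of the counts in the DAT libraries. The 37 genes held 6.60, 6.54 and 6.83% of the gene counts in CTR, 6.49, 6.12 and 6.43% in CX3 and 4.33, 4.64 and 4.45% in DAT. The 3 groups did not overlap, and the DAT libraries lay farthest from the others. The mean difference was -2.18 percentage points for DAT minus CTR, 1.88 for CX3 minus DAT and -0.309 for CX3 minus CTR, each with p = 0.1 in a two-sided exact permutation test, the smallest that 3 against 3 libraries allow. The small difference between CX3 and CTR depended on the denominator. As a percentage of all reads, unmapped ones included, the share was 4.27 ± 0.0908% in CTR and 4.31 ± 0.106% in CX3 (mean ± SD, n = 3), so that the difference turned to 0.0431 points (exact permutation p = 0.5), while that of DAT minus CTR stayed at -1.28 points (exact permutation p = 0.1). Unmapped reads made up 19.4 to 19.6% of the reads in CTR, 19.0% in CX3 A, 13.9 and 13.8% in CX3 B and C, and at least 17.7% in DAT. Reads that fell outside genes made up 7.47 to 7.61% in CTR, 6.39 to 7.73% in CX3 and 4.15 to 4.31% in DAT. The part of these in the share was not tested.

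**Figure D1:**
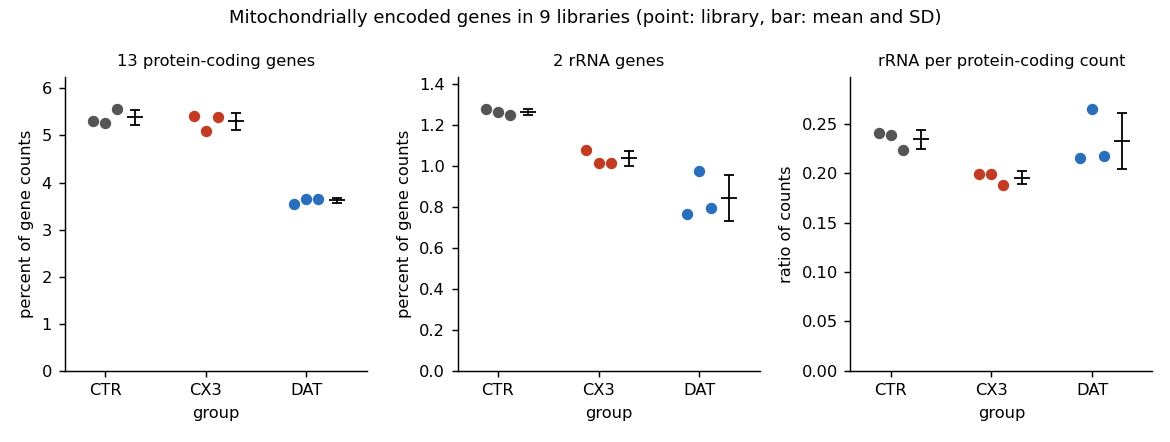
Share of the gene counts on the 13 protein-coding genes (left, percent) and on the 2 rRNA genes (middle, percent), and rRNA counts per protein-coding count (right, ratio), in CTR, CX3 and DAT. Each point is a library, and the black bar beside the points is the mean with its SD. The protein-coding share of DAT lies below that of the other groups, and the ratio of CX3, 0.188 to 0.199, below that of the other groups.

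Protein-coding and ribosomal RNA genes differed in how CX3 stood to the other groups. The protein-coding share alone was 5.31, 5.27 and 5.57% in CTR, 5.41, 5.10 and 5.40% in CX3 and 3.55, 3.66 and 3.65% in DAT. CX3 and CTR overlapped in this measure (difference -0.0828 points, exact permutation p = 0.6), and DAT lay below both. The share of the ribosomal RNAs was 1.28, 1.26 and 1.24% in CTR, 1.08, 1.01 and 1.01% in CX3 and 0.766, 0.972 and 0.795% in DAT. Here CX3 lay between CTR and DAT and overlapped with neither. This holds for the share of gene counts. On the TMM scale the summed ribosomal RNAs overlapped, with 9641 to 10100 CPM in CX3 and 8287 to 10558 in DAT. Ribosomal RNA counts per protein-coding count were 0.241, 0.239 and 0.223 in CTR, 0.199, 0.199 and 0.188 in CX3, and 0.215, 0.266 and 0.218 in DAT. The difference in this ratio was -0.0391 for CX3 minus CTR and -0.0376 for CX3 minus DAT (exact permutation p = 0.1 for both), and -0.00153 for DAT minus CTR (exact permutation p = 1). The kit named in the methods of the study selects RNA by its poly(A) tail, whereas its results section speaks of total RNA-seq. How the protocol captures ribosomal RNA of mitochondria was not tested.

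Counts per length spanned a wide range among the protein-coding genes, of which all but mt-Nd6 lie on one strand. In CTR, mt-Co1 stood highest among the protein-coding genes with 14726 CPM per kb of gene and mt-Nd4l lowest with 98.3, a ratio of 150. Nearly all stretches of mt-Nd4l also occur in a nuclear copy, so this ratio cannot be read as one of transcript levels. The order holds for reads that could be placed, from which stretches shared with a copy are missing for mt-Nd4, mt-Co1, mt-Nd2 and mt-Nd5. After mt-Co1 came mt-Cytb with 7603, mt-Nd1 with 6212, mt-Nd2 with 4499.9, mt-Nd4 with 3036, mt-Nd5 with 2627 and mt-Nd6 with 1778 CPM per kb. After a gap, mt-Co2 followed with 321, mt-Co3 with 288, mt-Atp6 with 242, mt-Atp8 with 235, mt-Nd3 with 114 and mt-Nd4l with 98.3. The same 6 genes lay below 1000 CPM per kb in all 3 groups, and the other 7 above, a split that was made after the values were seen. Of the 6 genes of low level, 5 are those with a nuclear copy over nearly their whole length. The other, mt-Atp8, for which no copy is annotated, lies on the chromosome between mt-Co2 and mt-Atp6. Reads that match a gene and its copy equally are not counted, so the values of these 5 genes cannot be read as levels of their transcripts. For mt-Atp8 this was not tested, because only annotated transcripts were searched. On chromosome 1 the copy of mt-Atp6, Gm10925, ends at 24614651 and that of mt-Co2, Gm28661, starts at 24614885. The bases between them were not searched. The ribosomal RNAs had 4663 (mt-Rnr1) and 4989 (mt-Rnr2) CPM per kb in CTR, and mt-Tp had 1246.

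**Figure D2:**
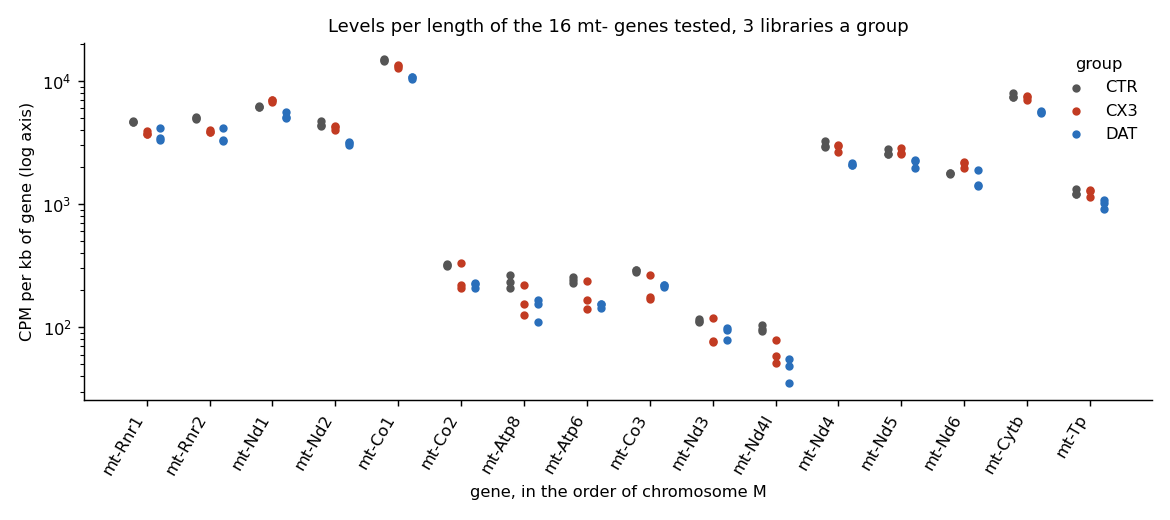
CPM per kb of gene (log axis) of the 16 mitochondrial genes that passed the filter on low counts, in their order on the chromosome, with 1 point per library. The 6 neighbouring genes, mt-Co2 to mt-Nd4l, lie below 1000 CPM per kb in all groups, with CX3 libraries spread more widely than CTR libraries.

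**Figure D3:**
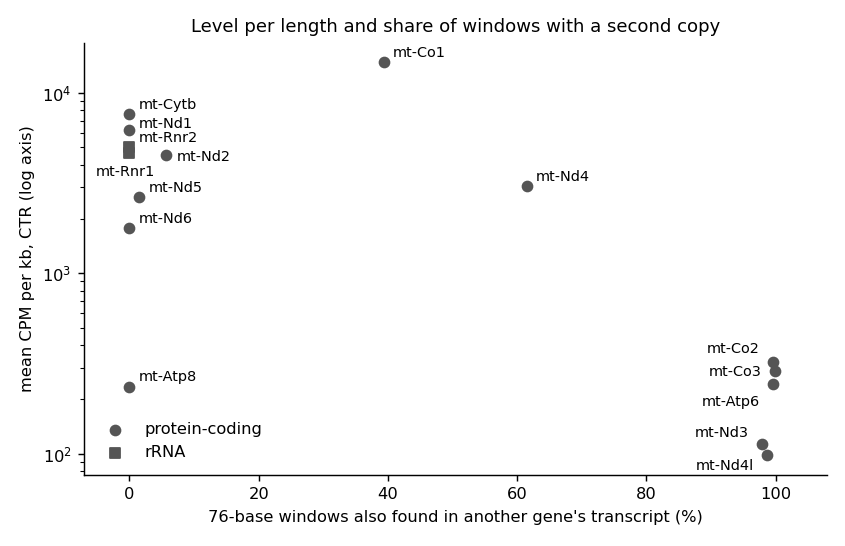
Mean CPM per kb in CTR (log axis) against the percentage of stretches of 76 bases that occur in the transcript of another gene, 1 point per protein-coding or rRNA gene. The 5 genes at 97.8% or more lie at 98.3 to 321 CPM per kb, and mt-Atp8, at 0%, has a similar level. Only annotated transcripts were searched, so copies without annotation are not seen.

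Gene by gene, counts were compared with edgeR's quasi-likelihood test over all 20892 genes that passed the filter, and a gene was called at a Benjamini-Hochberg adjusted p under 0.05. Of the 37 mitochondrial genes, 16 passed the filter: all 13 protein-coding genes, both ribosomal RNAs and the transfer RNA gene mt-Tp. Fold changes are log2 values ± SE with 3 libraries per group, and the median over all genes tested was -0.0033 for CX3 against CTR, -0.0038 for DAT against CTR and 0.010 for CX3 against DAT.

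Between CX3 and CTR, 6 protein-coding genes passed the test. Of the 13, 1 was higher in CX3 and 5 were lower, beside 14% and 16.5% of all genes tested, and their median was -0.16. The median was -0.051 over the 7 genes of high level and -0.45 over the 6 of low level. The one that rose was mt-Nd1, and those that fell were mt-Co1, mt-Co3, mt-Atp6, mt-Atp8 and mt-Nd4l. Both ribosomal RNAs were lower. Of the 6 calls of protein-coding genes, 4 are on genes of low level, and the count moved to 3 without CTR A or without CTR B and to 8 without CX3 A. Fitted on these 6 libraries alone, 10 were called, and against a fold change of at least 1.2 only 1. The shares of all genes called in these other fits were not counted.

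Between DAT and CTR, 12 of the 13 protein-coding genes, both ribosomal RNAs and mt-Tp were lower in DAT and none was higher, beside 27.9% lower and 32% higher of all genes tested. The median of the protein-coding genes was -0.47. Changes ran from -0.17 for mt-Nd6, the one gene not called, to -1.08 for mt-Nd4l. Neuronal markers were higher in DAT than in CTR, and all 6 microglial markers were lower. Of 6 astrocyte markers 3 were lower and none higher (median -0.092), and of 6 oligodendrocyte markers 3 were lower and 2 higher (median -0.074). Summed CPM of the astrocyte markers were 3762 in DAT against 5552 in CTR, a ratio of 0.678. Those of the oligodendrocyte markers were 15004 against 20207, a ratio of 0.742.

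Between CX3 and DAT, 8 protein-coding genes and mt-Tp were higher in CX3 and none was lower, beside 27.6% higher and 31.3% lower of all genes tested. All 7 protein-coding genes of high level were among the 8, at 0.30 to 0.47. The ribosomal RNAs did not pass the test. These comparisons share libraries and are not independent of each other.

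**Figure D4:**
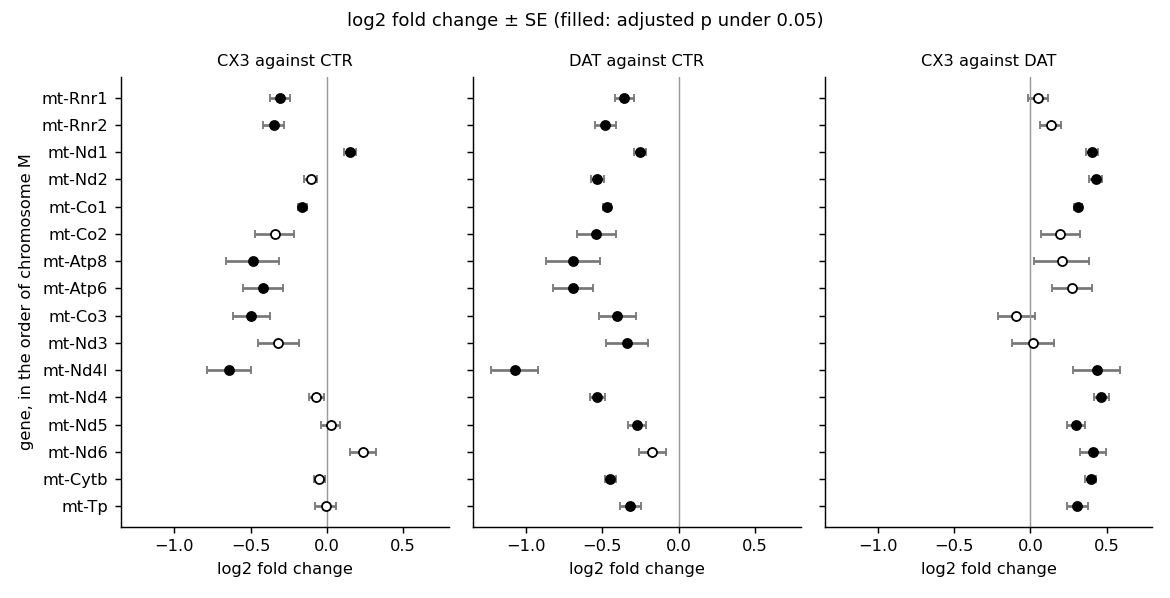
Log2 fold change ± SE of the 16 genes tested in the 3 comparisons, in the order of the chromosome. Filled points passed the test at an adjusted p under 0.05. Points for DAT against CTR all lie below 0, while those for CX3 against CTR lie on both sides.

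Complex I takes electrons from NADH, and the Nd genes encode its membrane subunits. The level of mt-Nd1 was 5898, 5918 and 6018 CPM in CTR, 6729.6, 6413 and 6654 in CX3 and 4779, 5348 and 4858 in DAT. All CX3 libraries lay above and all DAT libraries below the CTR libraries. The change was 0.15 ± 0.04 for CX3 against CTR (adjusted p = 0.0107) and -0.25 ± 0.04 for DAT against CTR (adjusted p = 8.12e-05), and CX3 exceeded DAT by 0.40 ± 0.04 (adjusted p = 8.39e-07). The call against CTR was at the edge of the threshold in CX3, with an adjusted p of 0.0521 without CTR A and 0.0501 without CTR B. For mt-Nd2, values of 4580.1, 4512 and 4920.4 in CTR, 4409, 4116 and 4499.8 in CX3 and 3155, 3295 and 3239.5 in DAT were found. All CX3 libraries lay below CTR and all DAT libraries below both. DAT passed the test at -0.53 ± 0.04 against CTR (adjusted p = 7.06e-08), and CX3 did not at -0.11 ± 0.04 (adjusted p = 0.0681), but was called in the second strand column (adjusted p = 0.0404) and with 2 groups only (adjusted p = 0.0209). The level of mt-Nd4 was 4062, 4031 and 4458 in CTR, 4116, 3680.5 and 4176 in CX3 and 2854, 2875 and 2944 in DAT. Here too DAT lay below both other groups, at -0.53 ± 0.05 against CTR (adjusted p = 4.08e-07), while CX3 overlapped with CTR.

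At the other end of the chromosome, mt-Nd5 had 4619, 4633 and 5124 CPM in CTR, 4615, 4761 and 5251 in CX3 and 4109.7, 3613 and 4175 in DAT. CX3 overlapped with CTR (0.02 ± 0.06, adjusted p = 0.793), and DAT was lower by a smaller step than for mt-Nd2 or mt-Nd4, at -0.27 ± 0.06 (adjusted p = 0.00132). The sign of the CX3 value turned without CTR A, CTR B or CX3 C, at -0.003676, -0.000851 and -0.03061. The only messenger RNA gene on the other strand, mt-Nd6, had 906, 931 and 931 CPM in CTR, 1137, 1116 and 1012 in CX3 and 731, 984 and 743 in DAT. CX3 lay above CTR in every library without passing the test (0.24 ± 0.09, adjusted p = 0.0535), and DAT overlapped with CTR through DAT B (-0.17 ± 0.09, adjusted p = 0.106). Without DAT B the change of DAT was -0.33 (adjusted p = 1.01e-07), and without CX3 C that of CX3 was 0.29 (adjusted p = 0.0468). Most other settings that kept every library of these 2 groups called mt-Nd6 higher in CX3. Its adjusted p was 0.0441 with DESeq2 size factors, 0.0235 with library size alone, 0.0362 with TMM without mt- genes, 0.0407 with DESeq2's test, 0.0153 and 0.00202 in the strand columns and 3.15e-05 when DAT was left out of the fit. Some settings with every library also called it lower in DAT in edgeR's test. Adjusted p was 0.00617 with library size alone, 0.00259 with genes of at least 1 count, 0.0284 and 0.0386 in the strand columns and 0.0486 without CX3 in the fit. The other settings, apart from scaling to the mitochondrial pool, did not call it in DAT. The counts of mt-Nd6 rest on reads clear of mt-Nd5 and hold 48.9% of the sum of its strand-specific counts, against 82.6% for mt-Nd5 and 98.5% or more for the other messenger RNAs except mt-Cytb with 96.3%. Since strand was not kept, reads from the light-strand precursor and from RNA opposite to mt-Nd6 cannot be told apart.

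The other Nd genes were of low level. For mt-Nd3 there were 38.6, 40.8 and 39.2 CPM in CTR, 41.2, 27.1 and 26.5 in CX3 and 27.3, 34.2 and 33.1 in DAT. For mt-Nd4l there were 27.6, 28.9 and 31.1, then 23.5, 17.3 and 15.2, then 14.3, 10.4 and 16.4. In both genes CX3 A stood above the other CX3 libraries, and for mt-Nd3 above all CTR libraries. The change of mt-Nd4l was -0.64 ± 0.14 in CX3 (adjusted p = 0.00374) and -1.08 ± 0.15 in DAT (adjusted p = 3.13e-05), a fold of 0.475 in DAT and the lowest of the 16 genes. That of mt-Nd3 was -0.32 ± 0.13 in CX3 (adjusted p = 0.0875) and -0.34 ± 0.14 in DAT (adjusted p = 0.0474). The call of mt-Nd3 in DAT was lost without any one of CTR A, CTR B, CTR C, DAT A or DAT C, with adjusted p of 0.0554 to 0.160, and in CX3 it passed without CX3 A at -0.56 (adjusted p = 0.000292). Without CX3 A, the difference of mt-Nd4l between CX3 and DAT was 0.25 in place of 0.43 and lost its call (adjusted p = 0.126).

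Complex III hands electrons from ubiquinol to cytochrome c, and mt-Cytb, cytochrome b, is its one subunit encoded in mitochondria. It had 8529, 8513 and 9053 CPM in CTR, 8497, 8016 and 8675 in CX3 and 6243, 6503 and 6394 in DAT. CX3 and CTR overlapped (-0.05 ± 0.04, adjusted p = 0.315), and DAT was lower than CTR by 0.45 on the log2 scale (adjusted p = 1.02e-07).

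Complex IV, cytochrome c oxidase, passes electrons to oxygen, and the 3 Co genes encode its catalytic core. The most abundant messenger RNA of all 3 groups, mt-Co1, had 22647, 22278 and 23332 CPM in CTR, 20499, 19850.3 and 20757 in CX3 and 16117, 16634 and 16488 in DAT. The groups stood in that order with no overlap. The change was -0.16 ± 0.03 in CX3 (adjusted p = 0.000606), a fold of 0.895, and -0.47 ± 0.03 in DAT (adjusted p = 4.01e-09), a fold of 0.721. For mt-Co2 there were 214, 224 and 221 CPM in CTR, 228, 150.4 and 142 in CX3 and 143, 158 and 153 in DAT, and for mt-Co3 219, 229 and 228, then 208, 139 and 133, then 174, 167 and 172. CX3 A lay beside the CTR libraries in both, and CX3 B and C beside or below the DAT libraries. In DAT, mt-Co2 and mt-Co3 fell by 0.54 and 0.40 on the log2 scale (adjusted p = 0.00237 and 0.0103). In CX3, mt-Co3 fell by 0.49 (adjusted p = 0.00651), and mt-Co2 had -0.34 ± 0.13 (adjusted p = 0.0564), which passed without CX3 A at -0.59 (adjusted p = 5.86e-06). Between CX3 and DAT, mt-Co3 had -0.09 ± 0.12 (adjusted p = 0.529), -0.30 without CX3 A (adjusted p = 0.000114) and 0.10 when scaled by library size alone.

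The ATP synthase makes ATP from the proton gradient, and mt-Atp6 and mt-Atp8 encode parts of its membrane sector. For mt-Atp6 there were 166, 174 and 155 CPM in CTR, 161, 113 and 96.1 in CX3 and 96.9, 106 and 104 in DAT. For mt-Atp8 there were 42.4, 47.8 and 53.8, then 45.4, 25.6 and 31.5, then 34.1, 22.4 and 31.5. Both had CX3 A within the range of CTR, and the DAT libraries below it. Against CTR, mt-Atp6 changed by -0.42 ± 0.13 in CX3 (adjusted p = 0.0264) and -0.69 ± 0.13 in DAT (adjusted p = 0.00044), and mt-Atp8 by -0.49 ± 0.17 (adjusted p = 0.0456) and -0.69 ± 0.18 (adjusted p = 0.00404). The calls in CX3 were lost with DESeq2's test (adjusted p = 0.0851 and 0.159). They were also lost without CTR A, CTR B, CX3 B or CX3 C, and for mt-Atp8 without CTR C, over a range of -0.26 to -0.42 for mt-Atp6 and -0.32 to -0.57 for mt-Atp8. Without CX3 A they were -0.66 and -0.75. Over CX3 and DAT neither was called, and mt-Atp6 was called without CX3 C (0.45, adjusted p = 0.00384) or DAT B (0.31, adjusted p = 0.0264).

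The 12 nuclear copies were counted as genes of their own and split the CX3 libraries as the 6 mitochondrial genes of low level did. The copies on chromosome 1 were Gm28439 (mt-Nd4), Gm10222 (mt-Nd4l), Gm28438 (mt-Nd3), Gm28437 (mt-Co3), Gm10925 (mt-Atp6), Gm28661 (mt-Co2) and Gm29216 (mt-Co1), all within chr1:24611535-24616197. On chromosomes 2, 4 and 13 were Gm13341 (mt-Co2), Gm13340 (mt-Co1), Gm13339 (mt-Nd2), Gm11407 and Gm4076 (both mt-Nd5). Summed over the copies, CTR had 1544, 1652 and 1579 CPM, CX3 1461, 1025 and 1013, and DAT 977, 1045 and 1079.9. Summed over the 6 mitochondrial genes, CTR had 707, 745 and 728 CPM, CX3 706, 473 and 444, and DAT 489, 497 and 511. Against the CTR mean, CX3 A stood at 91.8 and 97.2%, CX3 B at 64.4 and 65.1% and CX3 C at 63.7 and 61.1%. Of the copies, 9 of 12 were lower in CX3 than in CTR, beside 16.5% of all genes, and 11 of 12 in DAT, beside 27.9%. None was higher, beside 14% and 32%. The unmapped share, 19.0% in CX3 A against 13.9 and 13.8% in the other CX3 libraries, moved with this split within the group, and its part was not tested. Gm28438, whose copy differs from mt-Nd3 by T3C, did not split this way, with 59.2, 54.9 and 58.4 CPM in CX3 against 54.0, 52.1 and 50.8 in CTR (0.14 ± 0.10, adjusted p = 0.325). Whether the counts of these genes stem from the mitochondrial or the nuclear copy cannot be told apart in the deposited counts.

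**Figure D5:**
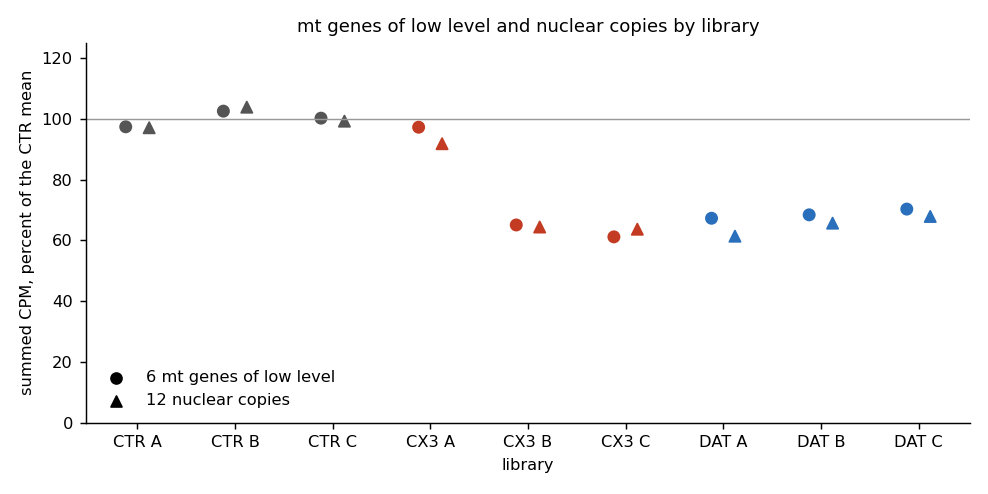
Summed CPM of the 6 mitochondrial genes of low level (circles) and of the 12 nuclear copies (triangles) in each library, as percent of the mean of the CTR libraries. CX3 A lies at 97.2 and 91.8%, and CX3 B and C lie at 61.1 to 65.1%, near the DAT libraries.

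The ribosomal RNAs, which build the core of the mitochondrial ribosome, were lower than CTR in both other groups. The RNA of the small subunit, mt-Rnr1 (chrM:70-1024), had 4514, 4447 and 4397 CPM in CTR, 3744, 3518 and 3548 in CX3 and 3171, 3988 and 3285 in DAT. That of the large subunit, mt-Rnr2 (chrM:1094-2675), had 7988, 7894 and 7795 in CTR, 6356, 6123 and 6121 in CX3 and 5117, 6569.8 and 5290.2 in DAT. DAT B stood above the other DAT libraries in both and above all CX3 libraries, but below CTR. In CX3 they fell by 0.31 and 0.35 (adjusted p = 0.00268 and 0.00152), and in DAT by 0.36 and 0.48 on the log2 scale (adjusted p = 0.000283 and 2.98e-05). CX3 against DAT gave 0.05 ± 0.06 and 0.13 ± 0.07 (adjusted p = 0.529 and 0.111), and without DAT B 0.17 and 0.27, which passed (adjusted p = 1.97e-05 and 2.46e-09).

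Transfer RNAs, which carry the amino acids and punctuate the precursor, were seldom counted. With both strands counted as one, 20 of the 22 genes had 0 counts in all 9 libraries, and 3 counts would be 0.0760 to 0.139 CPM of the gene counts, an allowance that covers counting error only. The gene mt-Tn had 1 count in each of 2 libraries. The exception was mt-Tp, for proline, the last gene before the control region, shown whole for chrM:15356-15422 (minus strand).
mt-Tp: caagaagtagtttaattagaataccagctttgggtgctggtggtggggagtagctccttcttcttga
It had 80.6, 80.5 and 89.2 CPM in CTR, 87.7, 76.1 and 85.1 in CX3 and 61.5, 72.1 and 68.2 in DAT. CX3 overlapped with CTR (-0.01 ± 0.07, adjusted p = 0.95), and DAT lay below both at -0.32 ± 0.07 against CTR (adjusted p = 0.00135) and was exceeded by CX3 by 0.31 ± 0.07 (adjusted p = 0.00159).

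Counted by strand, 10 of those 20 genes did have reads, while the other 10, all on the plus strand, had none in any column. A transfer RNA is shorter than a read, so a read over it usually reaches a neighbouring gene, and it is set aside unless the neighbour lies on the other strand and strands are counted separately. The highest was mt-Ts1, with 1793 to 4269 counts per library in the first strand column, followed by mt-Te with 471 to 1363, mt-Tq with 381 to 1211 and mt-Ty with 213 to 670. All 4 are minus-strand genes, and mt-Ts1 and mt-Tq overlap the ends of mt-Co1 and mt-Ti by 3 bases each. As strand was not kept in these counts, reads from transcripts of the plus strand that run over these genes cannot be told apart from the transfer RNAs. In that column 10 transfer RNA genes were tested, mt-Tp included. Compared with CTR, 5 were lower in CX3 and 8 in DAT, beside 13.8% and 27.3% of all genes in that column, and none was higher, beside 11.9% and 28.6%. Between CX3 and DAT, 7 were higher in CX3, beside 27.9%, and none was lower, beside 28.2%. In the second column 4, 7 and 6 were called in the same directions, beside 13.9%, 27.3% and 28.1%, and none in the other, beside 12%, 28.2% and 28%. The gene mt-Tq changed by -0.49 ± 0.06 in CX3 and -0.98 ± 0.06 in DAT (adjusted p = 8.54e-06 and 8.95e-10, first column), and mt-Ty by -0.60 ± 0.09 and -0.90 ± 0.09 (adjusted p = 8.07e-05 and 4.23e-07). The gene mt-Te had -0.06 ± 0.06 in CX3 (adjusted p = 0.526) and fell by 0.56 in DAT (adjusted p = 2.72e-06). No change passed for mt-Ts1, with -0.37 ± 0.16 and -0.25 ± 0.16 (adjusted p = 0.0982 and 0.206), and its CX3 libraries ranged from 2154 to 4269 counts.

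Scaled to the sum of the 13 messenger RNAs instead of to all genes, the make-up of the mitochondrial pool can be compared apart from its size. The pool was dominated by mt-Co1, with 35.0 ± 0.141% of the counts of the 15 protein-coding and ribosomal RNA genes in CTR, 33.9 ± 0.238% in CX3 and 34.0 ± 0.790% in DAT. The share of mt-Nd1 was 9.14 ± 0.123% in CTR, 11.0 ± 0.0999% in CX3 and 10.3 ± 0.264% in DAT, and that of mt-Nd6 1.42 ± 0.0337%, 1.82 ± 0.141% and 1.69 ± 0.230% (mean ± SD, n = 3). Relative to the pool, mt-Nd1 was higher than in CTR in CX3 (0.22 ± 0.05, adjusted p = 0.00183) and in DAT (0.17 ± 0.05, adjusted p = 0.00341), and so was mt-Nd6 (0.31 ± 0.08 and 0.25 ± 0.08, adjusted p = 0.00579 and 0.00803). The value of mt-Nd6 in DAT rests on DAT B, which had 1.96% against 1.56 and 1.55% in DAT A and C, and without DAT B it was 0.11 (adjusted p = 0.0624). In DAT, mt-Nd5 was also higher by 0.16 ± 0.06 (adjusted p = 0.0263).

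On this scale 2 protein-coding genes were higher and 4 lower in CX3 than in CTR, beside 19.2% and 10.9% of all genes, and 3 were higher and 2 lower in DAT than in CTR, beside 58.4% and 12.6%. Between CX3 and DAT, 2 protein-coding genes (mt-Co3 and mt-Nd3) were lower and none was higher, beside 54.1% and 13%. Without DAT B, 2 were higher and 3 lower in DAT than in CTR, and 1 was higher and 5 were lower in CX3 than in DAT. Without CX3 A, 2 were higher and 6 lower in CX3 than in CTR, and 5 were lower in CX3 than in DAT. For the fits without a library the shares over all genes were not counted, so these counts cannot be judged against them. Relative to the pool, mt-Rnr1 fell by 0.24 and mt-Rnr2 by 0.28 in CX3 against CTR (adjusted p = 0.00743 and 0.00249), and in DAT the values were 0.07 ± 0.06 and -0.06 ± 0.07 (adjusted p = 0.344 and 0.460). The direct comparison of CX3 with DAT gave -0.31 ± 0.06 and -0.22 ± 0.07 (adjusted p = 0.000204 and 0.00466). These values too depended on DAT B. Without it, mt-Rnr2 was lower in DAT than in CTR by 0.17 on the log2 scale (adjusted p = 0.00245), mt-Rnr1 had -0.028 (adjusted p = 0.651), and CX3 against DAT gave -0.21 and -0.11 (adjusted p = 0.000163 and 0.0424). The abundant messenger RNAs mt-Co1, mt-Cytb, mt-Nd2 and mt-Nd4 did not pass in any of the 3 comparisons on this scale with all libraries. Their values were -0.11 to 0.11. Together these genes make up most of the sum they are scaled by, which limits how far they can move. In CTR, mt-Co1 alone held 35.0% and mt-Cytb 13.4% of the counts of the protein-coding and ribosomal RNA genes. The lack of calls therefore does not show that their part of the pool was unchanged.

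The nuclear genes that read and copy the mitochondrial genome are listed by their counts. Of 38 tested genes of mitochondrial transcription, RNA processing and replication, 5 were higher and 3 lower in CX3 than in CTR (median -0.0012), 9 higher and 15 lower in DAT than in CTR (median -0.12), and 16 higher and 10 lower in CX3 than in DAT (median 0.12). Among all genes tested, 14% were higher and 16.5% lower in the first comparison, 32% and 27.9% in the second, and 27.6% and 31.3% in the third. Polrmt, the mitochondrial RNA polymerase, was higher in DAT than in CTR (35.4 ± 0.761 against 21.2 ± 2.19 CPM, 0.73 ± 0.07, adjusted p = 9.02e-07) and had 19.6 ± 1.22 CPM in CX3. Tfam, which packages the genome and starts its transcription, had 42.4 ± 2.37, 48.1 ± 1.64 and 44.9 ± 5.24 CPM in CTR, CX3 and DAT, with no change called. Tfb2m, a second initiation factor, was higher in CX3 (0.21 ± 0.06, adjusted p = 0.0112) and lower in DAT (-0.18 ± 0.06, adjusted p = 0.0167) than in CTR. Lrpprc, which stabilises the messenger RNAs, was lower in CX3 (67.7 ± 2.42 against 91.8 ± 1.80 CPM, -0.44 ± 0.05, adjusted p = 6.99e-06) and higher in DAT (114 ± 3.43 CPM, 0.32 ± 0.05, adjusted p = 3.47e-05). Its partner Slirp had at most 0.0800 CPM on average in a group and was not tested.

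By the rule for named genes, the 3 highest and 3 lowest calls in CX3 against CTR over this list and the regulators of biogenesis were Fastk (0.31 ± 0.05), Top1mt (0.27 ± 0.07), Esrra (0.23 ± 0.06), Lrpprc (above), Ptcd1 (-0.39 ± 0.09) and Gabpa (-0.33 ± 0.06). Fastk belongs to a family of proteins that process mitochondrial RNA, Top1mt is the mitochondrial topoisomerase, and Esrra and Gabpa are transcription factors of nuclear genes for mitochondria. Ppargc1a, the coactivator PGC-1alpha, had 58.7 ± 2.46 CPM in CTR, 61.0 ± 4.25 in CX3 (adjusted p = 0.561) and 85.3 ± 5.57 in DAT, where it was higher by 0.54 ± 0.06 (adjusted p = 4.36e-06). Of the 8 regulators of biogenesis, 1 was higher and 1 lower in CX3 than in CTR, beside 14% and 16.5% of all genes, and 5 were higher and 2 lower in DAT than in CTR, beside 32% and 27.9%.

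For the nuclear partners of the encoded proteins, the shares over all genes are the same 14% higher and 16.5% lower in CX3 and 32% and 27.9% in DAT. Of 84 nuclear subunits of the respiratory chain that were tested, 12 were higher and 3 lower in CX3 than in CTR (median 0.13), and 14 were higher and 16 lower in DAT than in CTR (median -0.050). Of 77 mitochondrial ribosomal protein genes, 7 were higher and 5 lower in CX3, and 11 higher and 13 lower in DAT, with medians of 0.072 and -0.022. The 13 mitochondrial protein-coding genes had medians of -0.16 and -0.47, and the difference from these lists was not tested. The 7 of high level had medians of -0.051 in CX3 and -0.45 in DAT, and the 6 of low level -0.45 and -0.62.

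The spread between libraries of one group was set against random sampling. The squared difference between libraries, as a multiple of that of random sampling, had a median of 20.3 over the 15 protein-coding and ribosomal RNA genes in CTR, 356 in CX3 and 39.6 in DAT. Over all other genes with at least 1000 counts in a library it was 1.22, 2.99 and 8.86. The mitochondrial genes have more counts than most of these, and at the same relative spread the multiple grows with the count, so the figures do not show which genes vary more.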

How the data were processed

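The authors deposited, per library, raw counts of reads per gene without normalization, made after trimming with Trimmomatic by alignment with STAR to mm10. The layout is that of STAR's own gene counts (4 summary lines, then counts for both strands together, for the first and for the second strand), while the methods name featureCounts, and DESeq2 for the comparisons. Versions are not given in the sources used here. The 4 summary lines were kept out of library sizes and tests. All 55450 identifiers matched GENCODE M21. Counts of both strands together were fitted over all 9 libraries with edgeR 4.0.16 (TMM, filterByExpr, quasi-likelihood test, 1 term per group) in R 4.3.3, with Benjamini-Hochberg adjustment over 20892 genes. The SE is the log2 fold change divided by the root of F. Shares were compared by exact permutation tests. The fit was tested on simulated data. Alternatives were other scalings and filters, each strand column, DESeq2 1.42.0, a threshold of 1.2-fold, a replicate block, scaling to the mitochondrial messenger RNA pool and leaving out each library. The 76-base stretches were searched in all GENCODE M21 transcripts, so copies that are not annotated were not seen. Other steps used Python 3.11.15, numpy 2.4.6, pandas 2.3.3, scipy 1.17.1 and matplotlib 3.10.9. Depth was 21592817 to 39475428 counts per library.

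The members, gene lists and markers were chosen with earlier results of these data known. Named were all 13 protein-coding and both ribosomal RNA genes, the transfer RNA genes that pass the filter and up to 6 with the most counts, all nuclear copies, and 6 nuclear genes of mitochondrial transcription with the 3 highest and 3 lowest calls of their lists.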

Additional observations from a re-analysis of the deposited data

Results flagged for a closer look

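For mt-Nd1, mt-Nd5 and mt-Nd6 the change against CTR had opposite signs in CX3 and DAT, which is why they are listed. The difference between the 2 groups, CX3 against DAT, was 0.4017 for mt-Nd1, 0.2978 for mt-Nd5 and 0.4097 for mt-Nd6 on the log2 scale (adjusted p = 8.39e-07, 0.000682 and 0.00106 in edgeR's quasi-likelihood test), higher in 3 of 3 CX3 libraries than in all DAT libraries for each gene. All 7 protein-coding genes of high level passed this comparison, mt-Nd2 with the same sign in both groups among them, so that passing it says nothing about the opposite signs. Of the single changes against CTR, those of mt-Nd5 in CX3 and of mt-Nd6 in both groups did not pass, and that of mt-Nd5 in CX3, 0.02, turned its sign without CTR A, CTR B or CX3 C.

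With strands counted separately, 10 transfer RNA genes that had 0 counts in the counts of both strands together did have reads, up to 4269 per library for mt-Ts1 in the first strand column. They are outside the main comparison, and CTR libraries had them too.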

How the results depend on the processing

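Of the counts of called genes and the shares, 113 of 132 values under an alternative were labelled as kept. For a count this means a total near the main one, whatever the directions of the calls. For a share it means a difference of the same sign, whatever its size. The CX3 minus CTR difference in mitochondrial share, -0.309 points, turned to 0.0431 with all reads as denominator. For CX3 against CTR, 6 protein-coding calls became 1 with a threshold of 1.2-fold, 10 with 2 groups only and 3 to 8 without a library, and 2 calls of ribosomal and transfer RNA became 7 and 6 in the strand columns and 0 with the threshold. For DAT against CTR, 3 such calls became 10 and 9 in the strand columns and 1 with the threshold. For CX3 against DAT, 1 such call became 2 with DESeq2 size factors, with TMM without mt- genes and with genes of at least 1 count, 3 with library size alone, 9 and 7 in the strand columns, 0 with the threshold and 1 to 3 without a library. More strand-column calls come with more transfer RNA genes tested there, and for the others the cause was not tested. Of 6 protein-coding calls of CX3 against CTR 1 was higher, against 2 of 7 with DESeq2 size factors, 2 of 5 with library size alone and 2 of 6 with TMM without mt- genes. Shares of all genes called under an alternative are given above only for the strand columns and for scaling to the pool.

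Library size alone moved the median of all genes to -0.15 for DAT against CTR and 0.20 for CX3 against DAT. It turned mt-Tp in CX3 against CTR to 0.0397 and mt-Co3 in CX3 against DAT to 0.103. The value of mt-Tp also turned to 0.03055 when the filter required only 1 count, to 0.004199 and 0.02844 in the strand columns, and ran from -0.0496 to 0.05256 without a library (above 0 without CTR C or CX3 B). That of mt-Nd5 in CX3 against CTR ran from -0.03061 to 0.07307 without a library (below 0 without CTR A, CTR B or CX3 C). In CX3 against DAT, mt-Co3 turned to 0.004816 in the second strand column. Without a library, mt-Co3 ran from -0.3049 to 0.04527 (above 0 without CX3 C), mt-Co2 from -0.02839 to 0.346 and mt-Atp8 from -0.03319 to 0.37 (below 0 without CX3 A), and mt-Nd3 from -0.1982 to 0.1545 (below 0 without CX3 A or DAT A).

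Relative to the messenger RNA pool the median of all genes moves to 0.066, 0.42 and -0.35, so signs turn by construction. In CX3 against CTR, mt-Nd4 was 0.00156, mt-Cytb 0.0187 and mt-Tp 0.0616, and, in an alternative chosen after seeing the data that also leaves out CX3 A, mt-Cytb 0.0172 and mt-Tp 0.0269. In DAT against CTR, mt-Rnr1 was 0.0692, mt-Nd1 0.175, mt-Co3 0.0256, mt-Nd3 0.0891, mt-Nd5 0.156, mt-Nd6 0.253 and mt-Tp 0.112. In CX3 against DAT, with all libraries and then without CX3 A, mt-Rnr1 was -0.305 and -0.326, mt-Rnr2 -0.223 and -0.233, mt-Co1 -0.0453 and -0.0425, mt-Co2 -0.161 and -0.397, mt-Atp8 -0.157 and -0.408, mt-Atp6 -0.0839 and -0.311, mt-Nd3 -0.342 and -0.571, mt-Nd5 -0.0605 and -0.0159, and mt-Tp -0.0507 and -0.0853, and mt-Nd4l was -0.121 without CX3 A. In a further alternative of this kind, without DAT B, DAT against CTR gave 0.1338 for mt-Nd1, 0.05198 for mt-Co3, 0.03492 for mt-Nd3, 0.2279 for mt-Nd5, 0.1131 for mt-Nd6 and 0.06953 for mt-Tp, and CX3 against DAT gave -0.208 for mt-Rnr1, -0.1136 for mt-Rnr2, -0.04582 for mt-Co1, -0.1404 for mt-Co2, -0.3153 for mt-Atp8, -0.06966 for mt-Atp6, -0.2871 for mt-Nd3, -0.0755 for mt-Nd4l, -0.1324 for mt-Nd5 and -0.00766 for mt-Tp.

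The letters A to C did not pair the libraries (correlations of deviations -0.29 to 0.11, 2 of 9 libraries closest to their own letter). With the letter as a replicate block, 7 protein-coding genes were called for CX3 against CTR, 11 for DAT against CTR and 8 for CX3 against DAT. The share of all genes called with the block was not counted. The block added a call of mt-Nd6 in CX3 against CTR (0.24, adjusted p = 0.0389) and lost that of mt-Nd3 in DAT against CTR (-0.34, adjusted p = 0.0664) in edgeR's test. Shares rest on 3 libraries a group, which cannot reach p under 0.1, and reads without molecular identifiers limit intervals to counting error.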
